A study of Mus musculus with 8 samples.

Results

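The UDP-glucuronosyltransferases (Ugt), glutathione S-transferases (Gst, with the microsomal Mgst) and sulphotransferases (Sult) were followed through postnatal maturation of mouse liver. Members were chosen by gene symbol, not by their values: symbols beginning Ugt1, Ugt2 or Ugt3, the Gst genes of the A, K, M, O, P, S, T and Z classes, Mgst1 to Mgst3, and Sult genes other than the Sult2a genes. This gave 55 of the 22059 genes listed, of which 20 were Ugt, 24 Gst or Mgst and 11 Sult genes. The data were RNA-seq read counts from whole livers of wild-type FVB (FVB/NJ) mice at 4 stages, each with 2 samples, namely embryonic day 18 (E18), postnatal days 14 (P14) and 28 (P28) and adult (3 months). No sample carried a transgene, deletion or treatment, and neither the sex of the animals nor any pooling of livers was given in the labels. The 2 samples of a stage are described as biological duplicates, and every p-value below measures the spread between such samples only.

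All 3 families attach a polar group to a drug, hormone or metabolite so that it can leave in bile or urine. Ugt enzymes transfer glucuronic acid from UDP-glucuronic acid in the endoplasmic reticulum, Gst enzymes couple glutathione to electrophiles, and Sult enzymes transfer sulphate from PAPS in the cytosol. Liver is the main organ of this chemistry in mammals, and low glucuronidation of bilirubin by Ugt1a1 around birth is the textbook cause of neonatal jaundice. The 8 Ugt1a genes are alternative starts of a single locus, in which each transcript joins its own first exon to the same downstream exons.

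Reads counted on genes numbered 68154675 to 106055723 per sample. The 8 hepatocyte markers had a summed level of 44900 to 45600 CPM (counts relative to library size after TMM scaling, which allows for differences in library composition) at E18, 216000 to 217000 CPM at P14, 160000 to 172000 CPM at P28 and 90600 to 112000 CPM in adult. All 8 rose from E18 to P14, the interval in which most members rose, and their part in those rises was not tested. Alb made up most of the sum, with means of 38360, 163500, 122000 and 57800 CPM at the 4 stages. From P14 to adult 1 of the 8 markers was called up and 0 down by the limits given below. By the false discovery rate alone 5 rose and 3 fell. Markers of blood-forming cells were also present at E18. The 9 erythroid markers summed to 10100 to 13100 CPM at E18 and 96.2 to 106 CPM in adult, and the 8 neutrophil markers to 1030 to 1220 and 1.44 to 3.95 CPM. In whole liver, fewer cells of a type and less RNA per cell cannot be told apart. Pancreatic enzyme genes were present at E18, where Cpa1 stood at 57.4 and 116 CPM against 0 CPM in both adult samples. Sex-linked genes were uneven. Xist was at 774 CPM in E18 replicate 1 and 570 CPM in P14 replicate 2, at 83.6 CPM in E18 replicate 2, and below 1 CPM in the other 5 samples. Ddx3y of the Y chromosome was at 0 and 28.0 CPM at E18, 54.2 and 5.76 CPM at P14, and 54.6 to 63.3 CPM at P28 and in adult. These levels were not balanced between the stages, so counts without the 2 Xist-high libraries are also given, and stage and sex cannot be told apart.

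More conjugation genes were called up from E18 to P14 than in either later interval, and the same held for all genes. Calls needed a change of more than 3-fold and a Benjamini-Hochberg adjusted p under 0.1 in edgeR's quasi-likelihood test, adjusted over the 17081 genes tested. Of the 55 members, 52 were tested, and Gsta1, Gstt4 and Sult1c1 had too few reads, with 0 to 14 in any sample. From E18 to P14, 35 of the 52 rose, against 13.8% of all genes, and 4 fell, against 15.4%. From P14 to P28, 17 rose (3.61% of all genes) and Mgst2 fell (5.98%). From P28 to adult, 4 rose (0.767%) and 2 fell (2.24%).

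Over the whole course from E18 to adult, 41 members rose and 5 fell, where 16.8% of all genes rose and 23.8% fell. The median log2 change was 4.14 over the members and −0.11 over all genes tested. From P14 to adult, 18 members rose and 3 fell, against 4.35% and 11.1% of all genes. With the 8 Ugt1a rows counted as 1 gene, as explained below, 34 of 45 rose and 5 fell from E18 to adult, and 28 rose and 4 fell from E18 to P14. The counts given next come from a fit with a lone library at E18 and at P14. The share of all genes called in that fit is not given. Without the 2 Xist-high libraries 42 of the 52 rose and 5 fell from E18 to adult, 34 and 4 from E18 to P14, 17 and 2 from P14 to P28, 4 and 1 from P28 to adult, and 20 and 3 from P14 to adult.

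**Figure D1:**
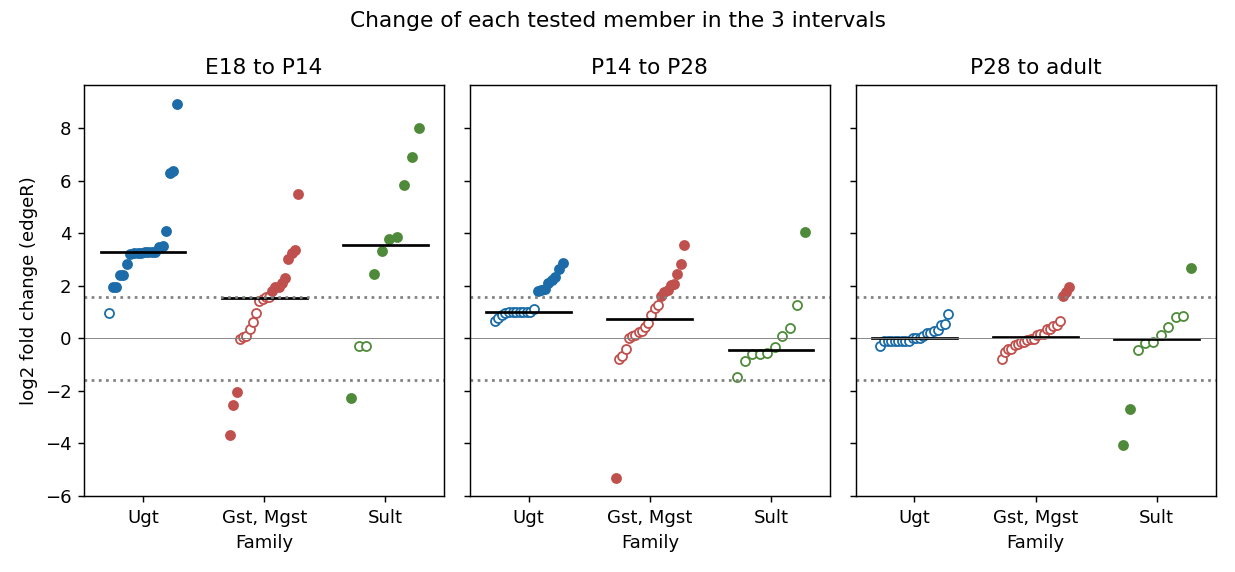
Log2 fold change of each of the 52 tested members (points) in the 3 consecutive intervals, by family. Filled points passed the test and the 3-fold limit (dotted lines), open points did not, and the black bar is the family median, which lay at 3.26 for Ugt, 1.54 for Gst and Mgst and 3.56 for Sult from E18 to P14 and near 0 in each family from P28 to adult. The 8 Ugt1a rows are drawn as separate points. Counted as 1 gene they give Ugt medians of 3.21 from E18 to P14 and 1.85 from P14 to P28, against 1.0 with separate rows in the latter.

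Each family had its own timing of calls, and the difference between families was not tested. Among the Ugt genes 19 of 20 rose from E18 to P14 and 8 rose again from P14 to P28, while none was called from P28 to adult, when 4 passed the false discovery rate alone. With the 8 Ugt1a rows counted as 1 gene, 12 of 13 rose in the first interval and 8 of 13 in the second. Of the 22 tested Gst and Mgst genes, 9 rose and 3 fell in the first interval and 8 rose and 1 fell in the second. Of the 10 tested Sult genes, 7 rose and 1 fell in the first interval and Sult5a1 alone was called in the second. A rise from E18 to P14 with no later call was seen in 20 of the 52 members, or 13 with the Ugt1a rows counted as 1 gene, and a rise in both of the first 2 intervals in 12. The stage with the highest mean was adult for 24 members, P28 for 17 (10 with Ugt1a as 1 gene), P14 for 6 and E18 for 5.

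**Figure D2:**
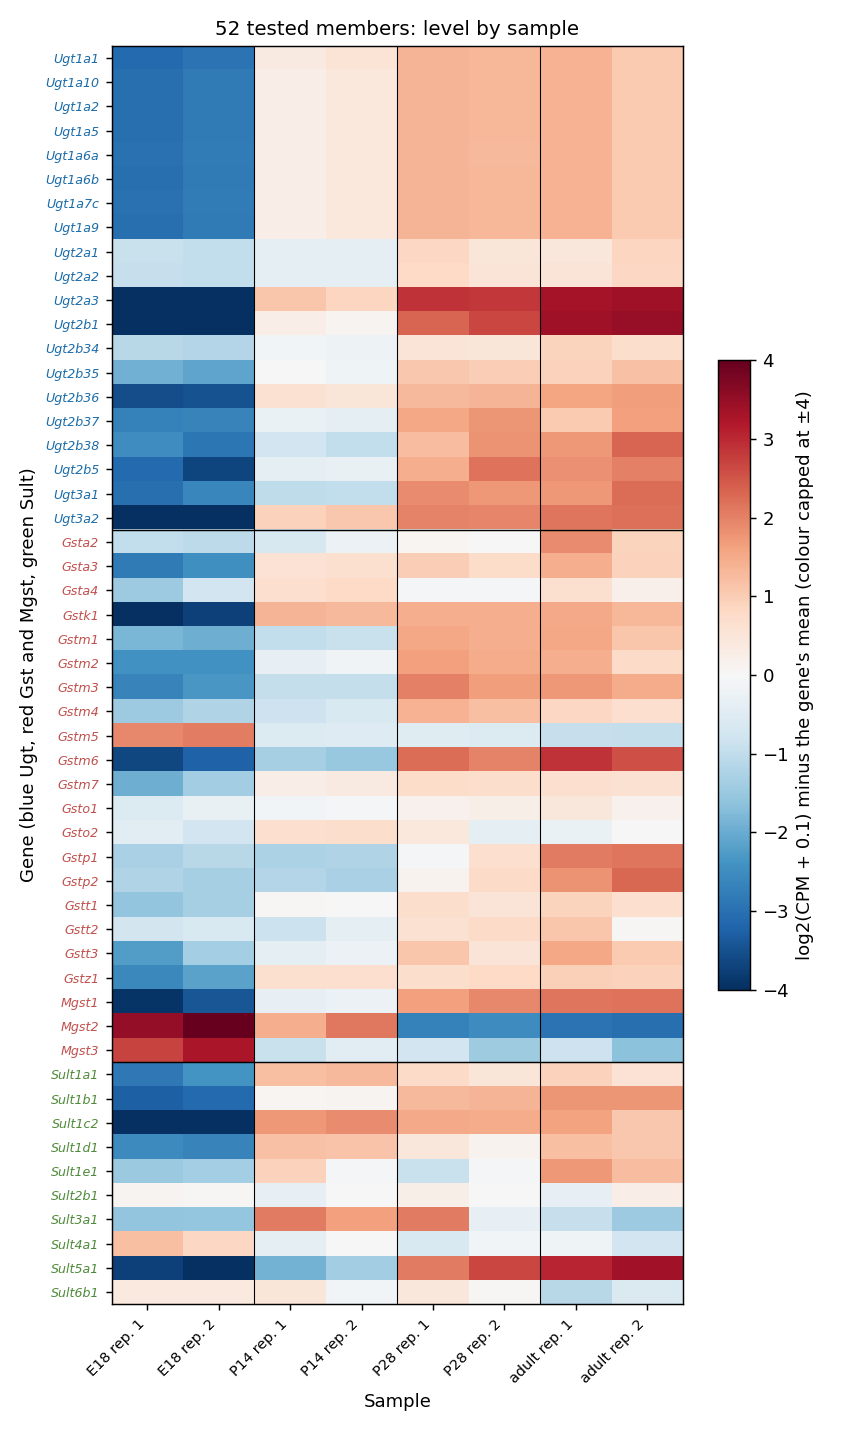
Level of the 52 tested members (rows, coloured by family) in the 8 samples (columns), as log2(CPM + 0.1) minus the mean of the gene, with colour capped at ±4. Most rows pass from blue at E18 to red at P28 and adult, and the 5 rows with their highest mean at E18 (Gstm5, Mgst2, Mgst3, Sult4a1 and Sult6b1) run the other way.

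Levels of different genes were compared per length, as deposited RPKM (counts divided by transcript length and sequencing depth). Summed over the 3 families, with Ugt1a1 standing for the Ugt1 locus, the level was 1350±197 RPKM (mean±s.d., n = 2 at each stage) at E18, 3408±53.0 RPKM at P14, 7254±583 RPKM at P28 and 9428±52.3 RPKM in adult. The Ugt sum was 9.93 times as high in adult as at E18, the Gst and Mgst sum 6.58 times and the Sult sum 7.79 times. Deposited RPKM carry no TMM scaling, and divided by the TMM factors, a step chosen after the data were seen, these ratios were 17.9, 11.8 and 14.0. The Sult sum had reached 332±11.6 RPKM by P14, which is close to its adult 328±18.3, whereas the Ugt sum stood at 448±5.23 at P14 and 1436±24.0 in adult.

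The make-up of the pool changed with its size. At E18 no gene held more than 15.0% of the summed level, and the leading genes were Mgst3 at 190±47.5, Gstm5 at 180±8.37 and Mgst1 at 164±36.0 RPKM, which overlap within their spread. At P14 Mgst1, a microsomal glutathione transferase and peroxidase, led with 27.2 and 27.7% of the sum. It held 50.4 and 55.6% at P28 and 51.0 and 55.1% in adult, where it stood at 5000±245 RPKM. Gsta3 followed at 893±216, Ugt2b1 at 619±49.1 and Gstz1 at 563±1.91 RPKM. The 2 genes that led at E18 stood at 5.64±2.13 (Mgst3) and 12.9±0.176 RPKM (Gstm5) in adult.

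**Figure D3:**
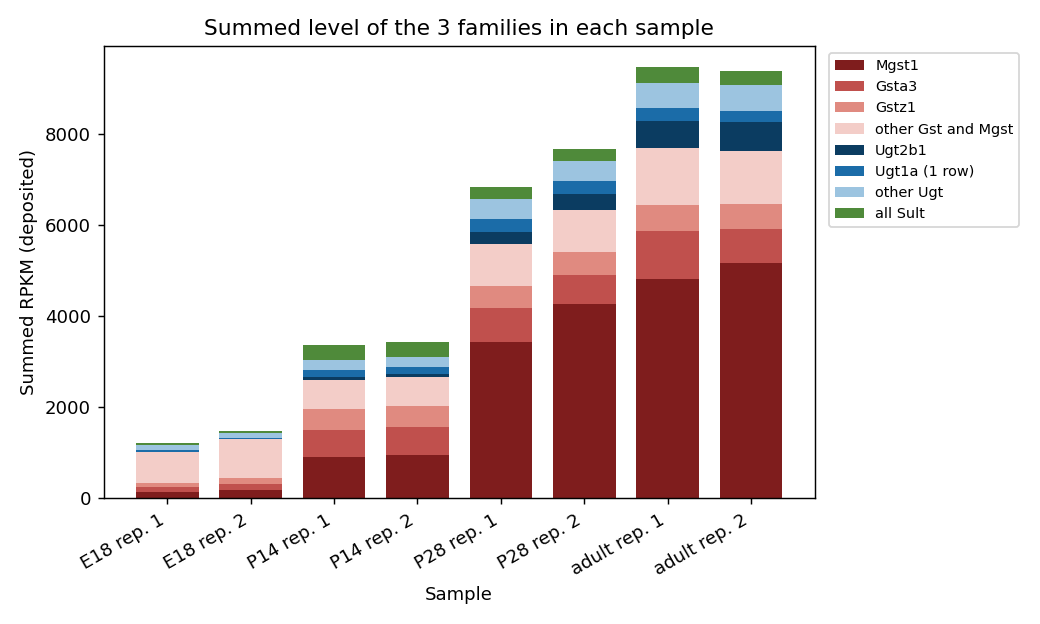
Deposited RPKM summed over the 3 families in each sample (bars, from 0), split by gene, with 1 row used for the 8 Ugt1a genes. The sum is 1211 and 1490 RPKM at E18 and 9465 and 9391 RPKM in adult, and Mgst1 (dark red) makes up 50.4 to 55.6% of the bar at P28 and in adult.

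Ugt1a1, the bilirubin-conjugating enzyme, had 52.04 and 59.1 CPM at E18, 589 and 661 CPM at P14, 1170 and 1137 CPM at P28, and 1196 and 948 CPM in adult. All later samples lay above both E18 samples, and P28 and adult overlapped. The log2 change was 3.49±0.15 (SE) from E18 to P14 and 4.27±0.16 from E18 to adult (adjusted p = 8.94e-08 and 1.92e-08), and 0.88±0.14 from P14 to P28, under 3-fold. Ugt1a6b and Ugt1a9 were also among the 4 Ugt genes with the highest mean RPKM. The Ugt1a6b row had 52.03 and 59.1 CPM at E18, 501 and 565 CPM at P14, 1071 and 1039 CPM at P28, and 1100 and 867 CPM in adult (log2 change 4.15±0.16 from E18 to adult, adjusted p = 2.24e-08). The Ugt1a9 row had 52.1 and 59.1 CPM at E18, 504.2 and 569 CPM at P14, 1089 and 1056 CPM at P28, and 1114 and 877 CPM in adult (4.16±0.16, adjusted p = 2.23e-08).

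These rows are not independent measurements. In E18 replicate 1 the 8 Ugt1a genes had 7187 to 7326 reads each, and in every sample the 7 rows other than Ugt1a1 differed by at most 1.93%. In GENCODE M21, on mouse build GRCm38, all 8 have 5 exons, of which 4 are shared, with 1311 shared bases and 913 bases in the first exon for Ugt1a1. Reads on the shared exons were therefore counted on each row. The excess of a row over the lowest of the 8 rows in the same sample gives reads particular to it, apart from those of the lowest row, which cannot be seen. The lowest row was not the same gene in every sample, so changes of a small excess between stages depend in part on that row. This split was chosen after the data were seen. Rows shared 7187 and 7208 reads at E18, 45886 and 50326 reads at P14, 85627 and 74280 reads at P28, and 63936 and 57504 reads in adult.

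Split in this way, the first exons followed different courses. The Ugt1a1 row had an excess of 36 and 22 reads at E18, 8075 and 8597 reads at P14, 7921 and 7037 reads at P28, and 5643 and 5415 reads in adult. It rose by 8.69±0.179 on the log2 scale from E18 to P14 (adjusted p = 4.13e-09, edgeR), and from P14 to P28 its change was 0.0977±0.115, while the shared reads changed by 0.986±0.14. The Ugt1a1 excess thus made up 17.6 and 17.1% of the shared reads at P14 and 8.83 to 9.47% at P28 and in adult, ranges that do not overlap.

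The Ugt1a9 row had an excess of 41 and 20 reads at E18, 341 and 399 reads at P14, 1502 and 1230 reads at P28, and 867 and 687 reads in adult. It rose from E18 to P14 (log2 change 4.13±0.283) and again from P14 to P28 (2.13±0.222, adjusted p = 0.000111, edgeR). For Ugt1a5 the excess was 0 and 2 reads at E18, 3 and 8 reads at P14, 533 and 286 reads at P28, and 225 and 246 reads in adult, with P28 and adult far above the earlier samples (log2 change 6.42±0.461 from P14 to P28, adjusted p = 1.49e-05, edgeR). Ugt1a10 showed 0 or 1 excess read in the E18 and P14 samples and 26 and 23 at P28. Its row was the lowest in both P14 samples and in E18 replicate 2, so its 0 there holds by definition. The same holds for the 0 of Ugt1a5 in E18 replicate 1. Ugt1a6a, which conjugates planar phenols, went from 139 and 92 excess reads at E18 to 211 and 261 reads in adult.

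Ugt1a7c ran in the opposite direction, with 52 and 65 excess reads at E18, 6 and 12 reads at P14, 0 and 0 reads at P28, and 2 and 0 reads in adult. Its row was itself the lowest in both P28 samples and in adult replicate 2, so its 0 there holds by definition. E18 lay above all other samples, and the log2 change from E18 to adult was −4.69±0.798 (adjusted p = 0.000735, edgeR). This test takes the excess as given, although its size at the later stages depends on which row was lowest. The summed excess was small against the shared reads, at 3.15 to 4.22% at E18 and at most 18.6% later, although the first exons hold 879 to 954 bases. Per kilobase of 1311 shared bases, E18 replicate 1 had 5482 shared reads, and the summed excess was 332 reads per kilobase of a first exon. These values were 35000 and 9337 in P14 replicate 1, 65310 and 11180 in P28 replicate 1, and 48770 and 7678 in adult replicate 1. The relation of excess to shared reads thus differed between stages, which limits the courses read from the excess. The deposited RPKM imply a longer Ugt1a1 transcript, of 3229 bases, and GENCODE M21 gives 2316 shared bases for Ugt1a7c. With that longer shared length the value of 5482 would be lower. Apart from this choice of length, the cause of the difference was not tested.

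**Figure D4:**
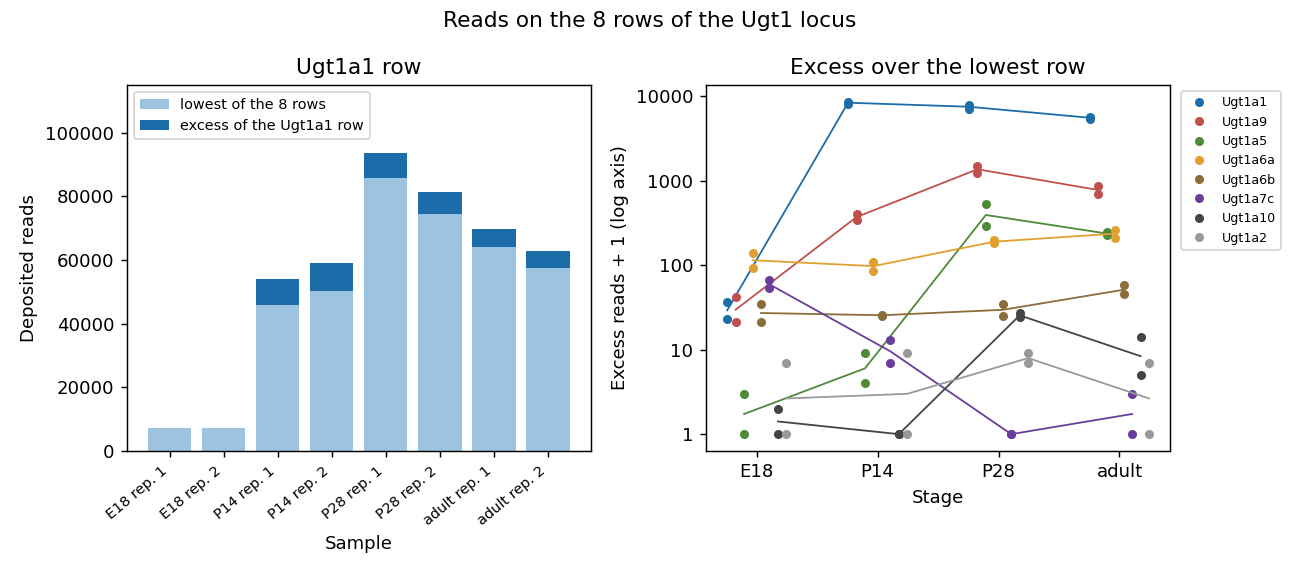
Left, deposited reads on the Ugt1a1 row in each sample, split into the reads of the lowest of the 8 Ugt1a rows and the excess of Ugt1a1 over it. Right, excess reads + 1 of each row on a log axis by stage (points are samples, lines join the means of the logs). Ugt1a1 rises before P14 and Ugt1a5 after it. Ugt1a7c falls from 52 and 65 reads at E18 to 0 and 0 at P28, where it is itself the lowest row.

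Because each Ugt1a first exon has a start of its own, the sequences at these starts are shown beside the counts. Windows of 300 bases, 250 before and 50 after the gene start, came from RefSeq on GRCm38.p6 and were found for 50 of the 55 members. The first set holds Ugt1a1, whose excess rose before P14, and Ugt1a9, whose excess rose before and after P14. It also holds Ugt1a5 and Ugt1a10, whose excess over the lowest row was higher at P28 than at P14. Lower case marks the bases before the gene start and capitals the first 50 bases of the transcript.
Ugt1a1, chr1:88211709-88212008, plus strand: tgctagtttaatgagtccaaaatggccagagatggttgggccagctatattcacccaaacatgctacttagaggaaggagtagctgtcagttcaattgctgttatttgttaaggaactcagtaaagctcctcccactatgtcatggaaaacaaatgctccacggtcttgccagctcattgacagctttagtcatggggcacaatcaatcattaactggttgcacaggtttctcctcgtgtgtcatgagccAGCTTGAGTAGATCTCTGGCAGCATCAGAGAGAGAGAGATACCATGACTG
Ugt1a9, chr1:88070529-88070828, plus strand: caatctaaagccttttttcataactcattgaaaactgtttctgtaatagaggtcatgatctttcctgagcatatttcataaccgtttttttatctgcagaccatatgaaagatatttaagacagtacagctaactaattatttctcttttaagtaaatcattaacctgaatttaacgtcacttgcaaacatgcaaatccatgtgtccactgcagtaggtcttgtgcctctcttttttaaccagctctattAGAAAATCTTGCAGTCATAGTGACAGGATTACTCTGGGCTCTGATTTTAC
Ugt1a5, chr1:88165762-88166061, plus strand: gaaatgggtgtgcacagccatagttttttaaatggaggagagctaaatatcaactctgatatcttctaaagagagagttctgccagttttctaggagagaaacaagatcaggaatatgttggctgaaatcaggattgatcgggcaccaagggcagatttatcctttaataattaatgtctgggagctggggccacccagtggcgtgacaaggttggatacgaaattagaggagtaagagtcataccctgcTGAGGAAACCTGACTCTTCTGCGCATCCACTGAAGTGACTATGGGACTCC
Ugt1a10, chr1:88055161-88055460, plus strand: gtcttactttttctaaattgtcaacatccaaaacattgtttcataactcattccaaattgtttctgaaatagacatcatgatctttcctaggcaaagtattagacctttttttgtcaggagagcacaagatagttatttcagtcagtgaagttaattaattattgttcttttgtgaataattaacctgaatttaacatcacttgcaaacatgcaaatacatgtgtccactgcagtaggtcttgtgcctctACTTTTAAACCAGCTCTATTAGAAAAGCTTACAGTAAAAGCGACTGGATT

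The rows with the most excess reads at E18 were Ugt1a6a, whose excess rose from E18 to adult (log2 change 2.10±0.212, adjusted p = 1.35e-05, edgeR), and Ugt1a7c, which fell.
Ugt1a6a, chr1:88134559-88134858, plus strand: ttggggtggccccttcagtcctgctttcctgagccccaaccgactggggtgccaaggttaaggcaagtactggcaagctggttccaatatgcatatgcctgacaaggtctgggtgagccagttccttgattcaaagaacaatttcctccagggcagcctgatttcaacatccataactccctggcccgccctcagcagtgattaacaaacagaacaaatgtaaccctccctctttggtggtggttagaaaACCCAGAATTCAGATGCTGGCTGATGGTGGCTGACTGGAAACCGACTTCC
Ugt1a7c, chr1:88094751-88095050, plus strand: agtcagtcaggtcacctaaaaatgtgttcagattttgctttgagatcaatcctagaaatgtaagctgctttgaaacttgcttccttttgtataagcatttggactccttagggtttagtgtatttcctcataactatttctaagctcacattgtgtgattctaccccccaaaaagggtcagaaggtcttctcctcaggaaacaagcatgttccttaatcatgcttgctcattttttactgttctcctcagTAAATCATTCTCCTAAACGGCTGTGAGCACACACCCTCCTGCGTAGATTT

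From E18 to adult the Ugt2 and Ugt3 genes rose by 1.94 to 11.29 on the log2 scale. The 8 Ugt1a rows, which share most of their reads, rose by 4.13 to 4.27. Their narrow range does not describe the first exons, so the ranges cannot be compared. Ugt2b1, which conjugates steroids and drugs, had 2.52 and 2.48 CPM at E18, 216 and 197 CPM at P14, 907 and 1159 CPM at P28, and 1889 and 2051 CPM in adult. The 4 stages did not overlap, and the log2 change from E18 to adult was 9.62±0.20 (adjusted p = 1.38e-09). Ugt2a3 changed most of the 52 members. It stood at 0.159 and 0.123 CPM at E18, 75.4 and 63.9 CPM at P14, 259 and 249 CPM at P28, and 349 and 367 CPM in adult, with log2 changes of 8.93±0.17 from E18 to P14 and 11.29±0.18 from E18 to adult (adjusted p = 3.75e-09 and 1.15e-09).

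Ugt3a1, of a family that uses sugars other than glucuronic acid, also rose between P14 and P28. Its level was 0.584 and 0.801 CPM at E18, 2.63 and 2.67 CPM at P14, 20.2 and 18.2 CPM at P28, and 18.3 and 25.7 CPM in adult. The rise from P14 to P28 was 2.86±0.19 on the log2 scale (adjusted p = 1.19e-05) and that from E18 to P14 was 1.94±0.21, and the difference between them was not tested. Its neighbour Ugt3a2 rose by 6.28±0.18 from E18 to P14 and changed by 0.98±0.14 from P14 to P28.

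Of the 7 Ugt2b genes all rose from E18 to adult, by 1.94 (Ugt2b34) to 9.62 (Ugt2b1) on the log2 scale. Ugt2b34 had the highest RPKM of the Ugt genes at E18 (105±4.33) and was not called in any consecutive interval. Of the other 6, all rose from E18 to P14, by 1.94 (Ugt2b35) to 6.37 (Ugt2b1), and 4 from P14 to P28. Those 4 were Ugt2b1, Ugt2b5, Ugt2b37 and Ugt2b38, whereas Ugt2b35 and Ugt2b36 changed by 1.11 and 0.79. Some rows share sequence with another gene. Of the 100-base windows of Ugt2a1 and Ugt2a2 transcripts, 94.9 and 93.5% occurred in another gene, so that their levels, below 0.3 CPM in every sample, may be the same reads. Ugt2b5 and Ugt2b38 shared 24.7 and 24.2% and may be split between them.

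Mgst1 had the highest RPKM of any member at P14, P28 and adult. It had 88.05 and 123.4 CPM at E18, 1063 and 1118 CPM at P14, 4157 and 5041 CPM at P28, and 5777 and 6011 CPM in adult. No 2 stages overlapped, and it rose from E18 to P14 (log2 change 3.37±0.19, adjusted p = 3.96e-07) and from P14 to P28 (2.08±0.18, adjusted p = 3.95e-05). From P28 to adult the change was 0.36±0.17, which did not pass the test (adjusted p = 0.21).

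The cytosolic genes with the highest levels rose early. Gsta3, an alpha class enzyme that detoxifies aflatoxin epoxide in mice, had 98.95 and 127 CPM at E18, 1049 and 1092 CPM at P14, 1375 and 1164 CPM at P28, and 1925 and 1323 CPM in adult, a log2 change of 3.24±0.21 from E18 to P14 (adjusted p = 9.75e-07). Gstz1, the maleylacetoacetate isomerase of tyrosine breakdown, had 130 and 175 CPM at E18, 1214 and 1229 CPM at P14, 1263 and 1348 CPM at P28, and 1509 and 1458 CPM in adult, with a log2 change of 3.0±0.15 (adjusted p = 2.37e-07). In both genes the E18 samples were low and the later stages lay close together, with no call after P14. Gstk1, the mitochondrial and peroxisomal kappa class enzyme, had the largest rise of the Gst genes in that interval (log2 change 5.49±0.28). Gsta4, which conjugates the lipid peroxidation product hydroxynonenal, rose to P14 (1.8±0.21), its highest stage, and its change from E18 to adult of 1.5 stayed under 3-fold.

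Gstt1, a theta class enzyme, had 74.5 and 90.4 CPM at E18, 235 and 230 CPM at P14, 369 and 325 CPM at P28, and 418 and 362 CPM in adult. It was called in no single interval and rose from E18 to adult (log2 change 2.24±0.13, adjusted p = 3.56e-07). With scaling to the hepatocyte factors, described below, its direction turned to −0.52 (adjusted p = 0.0508). Gstt3 was likewise called in no single interval and rose from E18 to adult (log2 change 3.06±0.31) and from P14 to adult (1.64±0.29, adjusted p = 0.00147).

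The 7 Gstm genes lie together on chromosome 3, and 6 of them rose from E18 to adult while Gstm5 fell. Of these 6, 3 were called from E18 to P14 and 5 from P14 to P28, the later interval. Gstm6 had 1.08 and 1.46 CPM at E18, 5.77 and 5.03 CPM at P14, 69.0 and 57.2 CPM at P28, and 109 and 87.2 CPM in adult, a log2 change of 3.55±0.18 from P14 to P28 (adjusted p = 2.34e-06) and 6.28±0.20 from E18 to adult. Gstm1, Gstm3 and Gstm4 were called in that interval alone, with log2 changes of 2.44, 2.82 and 2.01. Gstm2 rose in both of the first 2 intervals (2.31 and 1.83) and Gstm7 in the first alone (1.95). Of the transcript windows of Gstm3, 13.8% occurred in another gene, and 5.86% of those of Gstm1.

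The pi class rose last. Gstp1, which is known to be higher in male than in female mouse liver, had 25.2 and 28.5 CPM at E18, 25.8 and 26.8 CPM at P14, 59.6 and 98.3 CPM at P28, and 261 and 269 CPM in adult. E18 and P14 overlapped, and the log2 change was −0.03±0.19 from E18 to P14, 1.59±0.20 from P14 to P28 and 1.75±0.20 from P28 to adult (adjusted p = 0.902, 0.000291 and 0.000842). Gstp2 lay at 2.11 and 1.92 CPM at E18, 2.16 and 1.95 CPM at P14, 5.46 and 8.48 CPM at P28, and 17.4 and 24.6 CPM in adult, with log2 changes of 1.76±0.24 and 1.59±0.23 in the last 2 intervals. They were the 2 members that rose in both of these intervals. The rise of Gstp1 from P14 to P28 lay at the 3-fold limit, with a log2 change of 1.56 in a fit with replicate number as a block, which falls short of it.

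Without the 2 Xist-high libraries the log2 change of Gstp1 was −0.14 from E18 to P14 and 1.61 from P14 to P28 (adjusted p = 0.716 and 0.00899), and the part of sex in its course was not tested. Without P28 replicate 1 the log2 change of Gstp1 from P28 to adult was 1.43 (adjusted p = 0.000708) and that of Gstp2 1.31 (0.0148), both under 3-fold, and without adult replicate 2 Gstp2 was also under it, at 1.31 (0.0206). Of the transcript windows of Gstp1, 25.1% occurred in another gene, and 46.9% of those of Gstp2, so that the 2 rows may exchange reads.

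Gsta2 rose from P28 to adult at a low level. It had 3 and 2 reads at E18, and 0.0216 and 0.0163 CPM there, 0.0545 and 0.101 CPM at P14, 0.150 and 0.140 CPM at P28, and 0.791 and 0.346 CPM in adult. The log2 change from P28 to adult was 1.95±0.49 (adjusted p = 0.0312). The call was lost without either P28 library or without adult replicate 1 (adjusted p from 0.135 to 0.226), and 28.4% of its transcript windows occurred in another gene. The omega genes Gsto1 and Gsto2 and the theta gene Gstt2 were called in no comparison. Their log2 changes from E18 to adult were 0.74, 0.63 and 1.33 (adjusted p = 0.000252, 0.183 and 0.00224, edgeR), all under 3-fold. Gsto2 passed the false discovery rate alone from E18 to P14 (1.58, adjusted p = 0.00389). Gsto1 had 37.5 and 44.1 CPM at E18 and 74.4 and 62.3 CPM in adult, which do not overlap, while its deposited RPKM, which carry no TMM scaling, were 51.4±4.98 and 47.0±4.93, so that its direction depends on the scale.

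Of the sulphotransferases, Sult1a1 led at each stage. This phenol sulphotransferase had 26.4 and 36.3 CPM at E18, 438 and 471 CPM at P14, 328 and 271 CPM at P28, and 363 and 286 CPM in adult. Its highest samples were those at P14, and it rose from E18 to P14 by 3.86±0.20 on the log2 scale (adjusted p = 2.23e-07) with no call afterwards.

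Sult1d1, which sulphates catecholamines, had 10.5 and 9.53 CPM at E18, 139 and 138 CPM at P14, 85.3 and 68.5 CPM at P28, and 143 and 131 CPM in adult. P28 lay below both P14 and adult without overlap, by a log2 change of −0.85±0.12 from P14 and with 0.83±0.12 from P28 to adult (adjusted p = 0.000506 and 0.00252), both under 3-fold. Sult1b1, a thyroid hormone sulphotransferase, had 1.76 and 1.95 CPM at E18, 18.5 and 18.9 CPM at P14, 43.7 and 45.5 CPM at P28, and 60.4 and 60.9 CPM in adult, and rose by 3.34±0.10 from E18 to P14 (adjusted p = 1.32e-08). Its 4 stages did not overlap.

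Sult5a1 was the only Sult gene called from P14 to P28. It had 0.706 and 0.539 CPM at E18, 2.81 and 4.04 CPM at P14, 45.1 and 68.4 CPM at P28, and 88.5 and 111 CPM in adult. Its change from P14 to P28 of 4.05±0.25 was the largest rise of any member in that interval (adjusted p = 7.99e-06). Sult1c2 had 0.0504 and 0.0490 CPM at E18, from 13 reads in all, 12.6 and 13.9 CPM at P14, 10.7 and 10.5 CPM at P28, and 11.4 and 7.86 CPM in adult, a log2 change of 8.01±0.28 from E18 to P14 (adjusted p = 2.63e-08).

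Sult3a1 was the member with a peak at P14 and P28 that fell to adult. Its levels were 0.00721 and 0.00817 CPM at E18, which is 1 read in each library, 1.24 and 0.897 CPM at P14, 1.24 and 0.154 CPM at P28, and 0.0688 and 0.0151 CPM in adult. The 2 P28 samples lay far apart, and the P14 samples lay above both adult samples. The log2 change was −4.68±1.04 from P14 to adult and −4.08±1.08 from P28 to adult (adjusted p = 0.00463 and 0.0367). From summed reads, P14 was 26.7 times adult (95% exact interval 11.3 to 83.2, for counting error only) and 140 times E18 (38.3 to 1170).

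Sult3a1 is known to be higher in female than in male mouse liver. Without the 2 Xist-high libraries the change from P14 to adult was −4.90 (adjusted p = 0.027), and the part of sex in its course was not tested. The fall from P28 to adult was lost without P28 replicate 1 (log2 change −1.90, adjusted p = 0.219), without adult replicate 1 (−5.43, adjusted p = 0.103) and without adult replicate 2 (−3.33, adjusted p = 0.19).

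Sult1e1, the oestrogen sulphotransferase, had 0 and 1 read at E18, 0.425 and 0.168 CPM at P14, 0.05002 and 0.168 CPM at P28, and 0.842 and 0.557 CPM in adult. P14 and P28 nearly met, at 0.1683 and 0.1679 CPM, without overlap, and adult lay above both stages. The log2 change from P28 to adult was 2.69±0.64 (adjusted p = 0.0243), with 6.54 times as many summed reads per library size (95% exact interval 3.80 to 11.9). The call was lost without P28 replicate 1 (adjusted p = 0.152) and without adult replicate 1 (0.119). Sult2b1, a cholesterol sulphotransferase, was not called in any comparison and lay between 0.185 and 0.331 CPM in the 8 samples.

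The 5 members that fell from E18 to adult were Gstm5, Mgst2, Mgst3, Sult4a1 and Sult6b1. Gstm5 had 107 and 117 CPM at E18, 19.1 and 19.8 CPM at P14, 20.1 and 19.1 CPM at P28, and 14.7 and 14.6 CPM in adult, a log2 change of −2.53±0.09 from E18 to P14 (adjusted p = 3.16e-08). Mgst3, a microsomal transferase and peroxidase of the leukotriene pathway, had 67.0 and 98.1 CPM at E18, 5.47 and 7.47 CPM at P14, 5.97 and 3.79 CPM at P28, and 5.76 and 3.24 CPM in adult (−3.67±0.32 from E18 to P14, adjusted p = 7.71e-06). In both genes E18 stood above all later samples, which lay together.

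Mgst2, which can make leukotriene C4, fell in 2 steps. It had 14.8 and 22.0 CPM at E18, 3.49 and 5.497 CPM at P14, 0.1 and 0.126 CPM at P28, and 0.0688 and 0.0603 CPM in adult. The stages did not overlap, and the log2 change was −2.04±0.24 from E18 to P14 and −5.30±0.37 from P14 to P28 (adjusted p = 6.24e-05 and 1.4e-05). It was the only member called down from P14 to P28. In adult 8 reads were left over both libraries, and E18 was 283 times as high (95% exact interval 144 to 657).

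Sult4a1, a sulphotransferase of brain, and Sult6b1 fell from low levels. Sult4a1 had 0.288 and 0.204 CPM at E18, 0.0327 and 0.0673 CPM at P14, 0.0125 and 0.0560 CPM at P28, and 0.0516 and 0 CPM in adult, with a log2 change of −2.28±0.68 from E18 to P14 (adjusted p = 0.0131). Sult6b1 had 0.187 and 0.188 CPM at E18, 0.207 and 0.101 CPM at P14, 0.200 and 0.126 CPM at P28, and 0 and 0.0452 CPM in adult, a log2 change of −2.71±0.86 from P28 to adult (adjusted p = 0.0708). In adult each had 3 reads over both libraries. E18 was 10.3 times adult for Sult4a1 (95% exact interval 3.38 to 51.4) and P28 was 6.85 times adult for Sult6b1 (2.09 to 35.5). The fall of Sult6b1 from P28 to adult was lost without any of the 4 libraries of these stages other than adult replicate 2 and, at an adjusted p of 0.102, without the 2 Xist-high libraries.

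**Figure D5:**
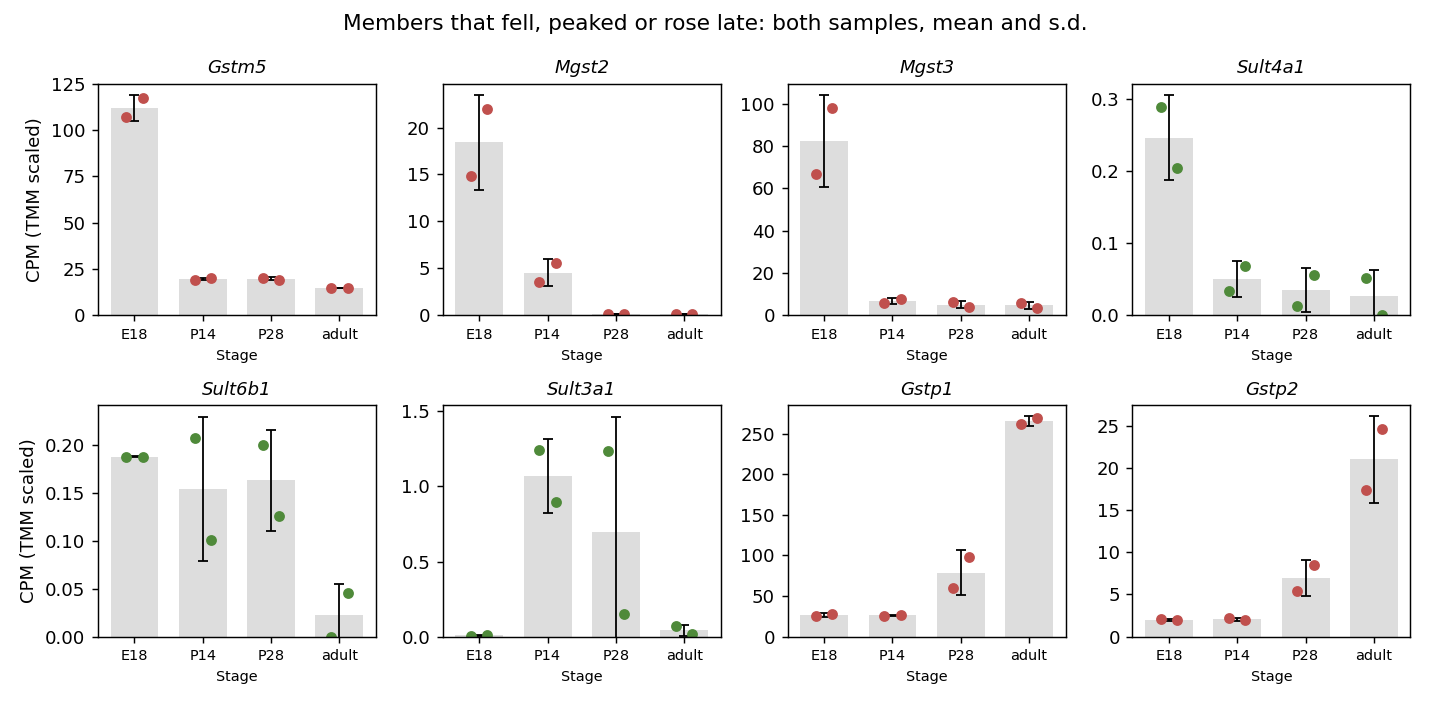
CPM after TMM scaling of the 5 members that fell from E18 to adult, of Sult3a1, and of Gstp1 and Gstp2 (points are samples, bars are stage means from 0, error bars are s.d., n = 2). Gstm5 and Mgst3 drop before P14, Mgst2 drops further before P28, and the 2 pi class genes stay near their E18 level at P14.

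Markers of other cells moved with these falls. All 9 erythroid and all 8 neutrophil markers fell from E18 to adult, and no marker of either list was at 0 reads in the E18 samples. The neutrophil markers still stood at 177 to 190 CPM at P14 and at 3.80 to 5.74 CPM at P28, the interval in which Mgst2 fell further. Other lists fell in it too. Called down were 7 of 8 neutrophil, 4 of 9 erythroid, 3 of 5 megakaryocyte, 4 of 5 B-cell and 4 of 4 proliferation markers. Of the T-cell and hepatocyte markers 0 were called down, against 5.98% of all genes. The neutrophil markers Ngp and Camp had 0 reads in adult. Of the 8 tested pancreatic acinar markers, 6 fell and 1 rose from E18 to adult, and their sum was 2.16 times as high in E18 replicate 2 as in replicate 1. The same ratio was 1.47 for Mgst3, 1.49 for Mgst2, 1.09 for Gstm5, 0.709 for Sult4a1 and 1.0 for Sult6b1. For Mgst1 and Gsta3, which rose, it was 1.4 and 1.29, and for the erythroid and neutrophil sums it was 1.3 and 1.18. The part of these cells in the falls was not tested.

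The scale on which libraries are compared bears on the rises. Between E18 and adult the median of all genes moved by −0.11 on the log2 scale after TMM and by −0.96 with library size alone. The sum of 10 hepatocyte factors, among them Hnf4a and Cebpa, rose from 337 to 366 CPM at E18 to 2460 to 2470 CPM in adult. Scaled to the geometric mean of their counts, in which each factor weighs the same, the median of all genes moved by −2.86. On that scale 18 members rose and 8 fell from E18 to adult, where 3.48% of all genes rose and 77.8% fell, and 10 of the Ugt genes, all outside the Ugt1 locus, remained called. From E18 to P14 12 members rose and 9 fell on that scale (3.85 and 59.1% of all genes), from P14 to P28 11 and 2 (2.46 and 10.7%), from P28 to adult 1 and 2 (0.427 and 5.81%) and from P14 to adult 9 and 5 (2.05 and 27.1%). Ugt1a1 then changed by 1.51, under 3-fold, and Mgst1 by 3.02. Gsto1, Gsto2 and Sult2b1 were called down on this scale and not with TMM.

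Genes that supply the donor molecules were examined from lists drawn up by function. All 4 genes of UDP-glucuronic acid supply rose from E18 to adult. They were Ugp2 and Ugdh, which make UDP-glucose and oxidize it, and the transporters Slc35d1 and Slc35d2, with log2 changes of 2.97, 2.71, 3.04 and 3.77. Ugdh had 16.9 and 18.7 CPM at E18, 17.6 and 16.8 CPM at P14, 84.3 and 92.4 CPM at P28, and 125 and 107 CPM in adult. Thus E18 and P14 overlapped for Ugdh, and its call fell in the interval from P14 to P28.

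Of 8 glutathione genes 3 rose and 2 fell from E18 to adult, where 16.8% of all genes rose and 23.8% fell. Those that rose were Gclc (2.00), the catalytic subunit of glutamate-cysteine ligase, Ggct (1.69) and Chac1 (2.30), which break down gamma-glutamyl compounds. Ggt1, the surface enzyme that degrades glutathione, and the cystine carrier Slc7a11 fell, with log2 changes of −8.45 and −4.96. Of 7 genes for PAPS and sulphate, 3 rose, namely the PAPS synthase Papss2 (3.95), the phosphatase Bpnt1 (2.30) and the sulphate carrier Slc26a1 (2.80). Papss2 had 13.9 and 12.4 CPM at E18 and 363 and 397 at P14, its highest stage, as for Sult1a1.

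Among 8 sensors of foreign compounds, 4 rose. These were the receptors Nr1i2 (PXR, 2.69) and Nr1i3 (CAR, 5.38), their partner Rxra (3.02) and Ppara (2.84). The changes of Nfe2l2 (0.32) and Keap1 (0.73), which control the electrophile response of many Gst genes, and of Ahr (0.86) were under 3-fold. Of 9 other conjugating enzymes 7 rose, from 3.36 for Tpmt to 11.47 for Inmt on the log2 scale, the others being Nat1 (4.17), Nnmt (9.49), Hnmt (5.78), Glyat (8.88) and Baat (7.31). Of 3 deconjugating enzymes Arsa rose (2.40), and the beta-glucuronidase gene Gusb changed by −1.03, under 3-fold.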

How the data were processed

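Poly(A) RNA from whole livers of untreated FVB (FVB/NJ) mice was sequenced at 4 stages, 2 samples each. The labels name Trizol for RNA extraction, whereas the study's methods name a column kit. The authors deposited read counts per gene, not normalized, together with RPKM values, which are counts divided by transcript length and mapped reads. The genome build in the submitters' processing notes is mm9. Counts on genes were 68154675 to 106055723 per sample, 91.4 to 94.1% of the total implied by the deposited RPKM.

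Counts of all 22059 genes were filtered with filterByExpr, TMM-scaled and fitted over the 8 samples by edgeR 4.0.16's quasi-likelihood test (R 4.3.3), with 5 contrasts between stages, a Benjamini-Hochberg false discovery rate under 0.1 and a change over 3-fold. Standard errors were the log2 change divided by the root of F. Alternatives used DESeq2 1.42.0 and limma 3.58.1 on log2(RPKM + 0.1). On simulated counts for 16392 genes (E18 to adult) edgeR recovered 99% of 200 changed genes with 1 false call. Genes with few reads were left out of those changed, every change was larger than 3-fold, and all genes had the same spread (dispersion 0.0135). The simulation therefore does not cover members with few reads or with changes near 3-fold. Promoters came from RefSeq (GRCm38.p6) and exons from GENCODE M21, and no coordinate was converted. Summaries used Python 3.11.15, and exact Poisson intervals at 95% cover counting error only.

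Values in every sample are given for the 4 members of each family with the highest mean RPKM, the 3 largest rises and falls called in each contrast, every member called down from E18 to adult, and every member highest at P14 or P28 and called down to adult. Other genes named were chosen after their values were seen. The members and lists were chosen with earlier results of these data known. Samples with the same replicate number in different stages did not deviate together (r from −0.107 to 0.0841 over 6 pairs of stages), so the numbers do not pair them. Some genes of the lists are not reported here.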

Additional observations from a re-analysis of the deposited data

How the results depend on the processing

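Each stage had 2 samples, so the limits lie in the spread between them, in the scale and in reads shared between paralogs. With at least 10 counts required in every sample, which removes low genes, the members called down were 2 from E18 to P14, 0 from P14 to P28, 0 from P28 to adult, 2 from E18 to adult and 0 from P14 to adult, and 2 were called up from P28 to adult. Scaled to the hepatocyte factors, 12 members rose and 9 fell from E18 to P14, 11 and 2 from P14 to P28, 18 and 8 from E18 to adult and 9 and 5 from P14 to adult, 1 rose from P28 to adult, 10 Ugt and 4 Gst and Mgst genes rose from E18 to adult, and Gstt1 turned to −0.52. With DESeq2, with the compared stages alone and with a false discovery rate of 0.05, 1 member fell from P28 to adult. Limma called 22 up from E18 to P14, 1 down from P28 to adult and 3 down from E18 to adult. The cause of these differences was not tested. Among the alternatives here and below, shares of all genes called are given for the scaling to hepatocyte factors alone.

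Among alternatives chosen after seeing the data, 13 Ugt genes rose from E18 to adult with the Ugt1a rows taken as 1 gene or as shared and excess reads. Without the 2 Xist-high libraries 2 fell from P14 to P28 and 1 from P28 to adult. Leaving out 1 library at a time, where the lone sample of a stage is assumed to vary like the other stages, gave 34 to 38 up and 4 down from E18 to P14, 15 to 17 up and 1 to 2 down from P14 to P28, 0 to 4 up and 0 to 2 down from P28 to adult, 41 to 44 up and 5 down from E18 to adult, and 17 to 20 up and 2 to 3 down from P14 to adult. From P28 to adult no member was called without P28 replicate 1, and 2 up and 0 down without adult replicate 1. With a replicate block, 36 members rose and 4 fell from E18 to P14, 16 and 1 from P14 to P28, 4 and 2 from P28 to adult, 41 and 5 from E18 to adult and 18 and 3 from P14 to adult. Under the block Gsto2 passed 3-fold from E18 to P14 (log2 change 1.60 against 1.58) and Gstp1 fell short of it from P14 to P28 (1.56 against 1.59), and it changed no other call of a member. The next counts cover the genes given with values in every sample, over all alternatives. Direction could not turn where an alternative changed only the limits of a call or took the Ugt1a rows as 1 gene. A looser fold limit could not make a call fall short either. Genes that an alternative filtered out were left out of the counts. The log2 changes kept their direction and their side of the threshold in 822 cases, part of them fixed in advance in this way. They fell short of the threshold in 33 cases and turned in 1, that of Gstt1. Gsto1 and Gsto2, which TMM did not call, also turned from E18 to adult when scaled to the hepatocyte factors.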
